A study of Mus musculus with 9 samples.

Results

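Ribosomal protein pseudogenes were followed in RAW264.7 cells, a mouse monocyte and macrophage leukemia line, by paired-end mRNA sequencing. A row of the expression table belonged to the set when its Ensembl gene carried, in the GENCODE M21 annotation, a symbol that starts with Rpl or Rps and holds "-ps", and when its mean over all 9 libraries reached 0.1 FPKM (fragments per kilobase, which scales a count to exon length and library size). Of 192 such pseudogenes above 0 in at least 1 library, 132 met the rule, out of 28137 gene identifiers in the table and 300 pseudogenes of this name in the annotation. The members were thus chosen by their mean level over all groups, and that level is given only as a description. All 9 libraries came from RAW264.7 cells given siRNA at 60 nM for 6 h, complete medium for 12 h, and then LPS (lipopolysaccharide, a bacterial inflammatory stimulus) at 100 ng/ml for 24 h. The libraries fell into 3 groups of 3: a negative control siRNA (NC siRNA), siRNA against Sfrp2, which encodes a secreted frizzled-related protein of the Wnt pathway, and siRNA against Rab6a, which encodes a small GTPase of the Golgi. There was no group without LPS and none without transfection. The study's methods text differs from the sample labels in the siRNA dose and also names IFN-γ, and the labels were followed here. No label states whether the 3 libraries of a group came from separate cultures, so p-values measure only the spread between these libraries, which may be technical. The SFRP2 siRNA libraries carry the names siRNA-1, siRNA-2 and siRNA-3, and whether each received a different siRNA is not settled by the labels, so the spread of that group may include a difference between siRNAs.

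The libraries held 32758729 to 47149258 reads. Sfrp2 had 2 to 4 reads in each of the 9 libraries, which is too few to check the label of that group. Rab6a stood at 24.3, 27.3 and 25.5 FPKM in the NC libraries and at 21.2, 20.7 and 20.4 FPKM in the RAB6A siRNA libraries, 0.808 times the NC mean (log2 fold change −0.31, SE 0.06, limma adjusted p = 0.0026), so the targeted transcript was lower but present. The macrophage marker Cd68 stood at 1596 to 1850 FPKM as a group mean, whereas the markers of other blood and tissue cell types that were listed stayed under 1 FPKM. Of 9 macrophage markers, 4 were lower in RAB6A siRNA than in NC (Lyz2, from 872 to 214 FPKM as means, with Csf1r, Spi1 and Mpeg1), 1 was higher (Ptprc, from 18.3 to 20.6 FPKM) and 4 did not pass, and their part in the results below was not tested. Across all 16925 genes tested the RAB6A siRNA libraries differed from NC in 33.9% of genes as higher and 30.2% as lower, so a call in that comparison was common.

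Cytosolic ribosomal proteins build the large (Rpl) and small (Rps) subunits of the ribosome, and their mRNAs are among the most abundant of a growing cell. Processed pseudogenes arise when such an mRNA is reverse transcribed and inserted elsewhere in the genome as a copy without introns. Ribosomal protein genes have left more of these copies in mammalian genomes than most gene families, and most copies are thought not to make protein. Because a recent copy is nearly identical to the mRNA it came from, a short read may match the copy, its parent gene and other copies equally well.

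The 132 pseudogenes were named after 46 parent genes, 80 of them after large subunit genes and 52 after small subunit genes. All had 1 exon, with a median length of 482 bases (151 to 1347), and they lay on 20 chromosomes. The annotation classed 122 as processed pseudogenes, 5 as transcribed processed pseudogenes and 5 as protein coding. Between genes lay 76 of them, in an intron of another gene 52 (32 on the opposite strand and 20 on the same strand), and over an exon of another gene 4.

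Aligned with the parent transcript, the pseudogenes had a median identity of 98.7% (53.8% to 100.0%), and 113 of 132 reached at least 95%. The longest run without a difference had a median of 190.5 bases. When each pseudogene was read in windows of 100 bases, 110 shared at least 1 window with the parent, 117 shared at least 1 with a gene other than the parent, 19 shared every window with some other annotated transcript, and 14 shared none. For 126 the named parent was also the coding gene with most sequence in common, and 6 were exceptions, among them Rps7-ps2, whose closest coding gene was Odc1, and Rpl36a-ps3, which was closest to Rpl36al. These comparisons used annotated transcripts only, as the genome sequence itself was not used here.

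The sequences below show what separates a pseudogene from its parent in some of the members the results turn on. Each is a stretch of 60 bases, 5′ to 3′, from the GENCODE M21 transcripts (GRCm38), chosen inside the parent's coding sequence where the pair differed most, with capitals at the bases that differ between them. Rps10-ps2, the pseudogene with the highest level, is shown at chr16:20822203-20822262 (minus strand), and holds 4 of its 5 substitutions there.
Rps10-ps2: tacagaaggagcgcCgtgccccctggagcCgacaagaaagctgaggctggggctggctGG
Rps10: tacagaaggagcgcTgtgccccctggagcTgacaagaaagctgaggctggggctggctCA
Rpl28-ps1, at chr1:128038569-128038628 (plus strand), has no difference from Rpl28 here or over its whole 414 bases, so no read inside it can be told from the parent.
Rpl28-ps1: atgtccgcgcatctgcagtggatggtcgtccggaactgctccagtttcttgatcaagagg
Rpl7a-ps5, at chr17:57838706-57838765 (minus strand), had the smallest p for a rise in the SFRP2 siRNA libraries.
Rpl7a-ps5: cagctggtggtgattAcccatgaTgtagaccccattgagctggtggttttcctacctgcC
Rpl7a: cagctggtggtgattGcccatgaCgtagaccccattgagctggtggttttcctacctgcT
Rps15a-ps6, at chr11:6172873-6172932 (minus strand), and Rpl5-ps1, at chr1:14865637-14865696 (plus strand), were among those with the highest fold change in the RAB6A siRNA libraries.
Rps15a-ps6: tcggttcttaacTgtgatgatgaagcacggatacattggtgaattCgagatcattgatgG
Rps15a: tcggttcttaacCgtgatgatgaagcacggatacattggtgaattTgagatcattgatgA
Rpl5-ps1: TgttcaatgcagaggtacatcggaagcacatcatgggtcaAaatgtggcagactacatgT
Rpl5: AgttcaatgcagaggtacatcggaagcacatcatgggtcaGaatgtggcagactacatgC
Rpl21-ps1, at chr1:184617457-184617516 (plus strand), was lower in the RAB6A siRNA libraries and shared no window of 100 bases with any other transcript.
Rpl21-ps1: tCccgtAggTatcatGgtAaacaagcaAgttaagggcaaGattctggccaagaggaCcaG
Rpl21: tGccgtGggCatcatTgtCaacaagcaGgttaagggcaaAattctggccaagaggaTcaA
The 9 differences of Rpl21-ps1 in its stretch stand against 3 each in Rpl7a-ps5, Rps15a-ps6 and Rpl5-ps1.

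The levels of the pseudogenes spanned more than 3 orders of magnitude, and a few held most of the signal. By their mean over 9 libraries, 7 reached 100 FPKM, 18 lay from 10 to 100, 40 from 1 to 10, 20 from 0.5 to 1 and 47 from 0.1 to 0.5, with a median of 0.990 FPKM. The 10 highest held 72.9% to 79.4% of the summed FPKM of all 132 in a library. Just inside the threshold were Rpl31-ps10 (0.102 FPKM) and Rps24-ps2 (0.101 FPKM), and just outside it were Rpl35a-ps6 (0.0981 FPKM) and Rpl30-ps6 (0.0968 FPKM). The 60 pseudogenes outside it summed to 1.23 ± 0.297 FPKM in NC, 1.85 ± 0.522 FPKM in SFRP2 siRNA and 2.42 ± 0.289 FPKM in RAB6A siRNA (SD, n = 3). A pseudogene could pass the rule through the RAB6A siRNA libraries alone, and 117 of the 132 also had an NC mean of at least 0.1 FPKM.

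Rps10-ps2 (ENSMUSG00000099764), at chr16:20822145-20822640 between genes, is named after the small subunit gene Rps10. Its level was 275, 243 and 279 FPKM in NC, 263, 244 and 240.5 FPKM in SFRP2 siRNA, and 658, 728 and 649.7 FPKM in RAB6A siRNA. Every RAB6A siRNA library lay above every other library, whereas the NC and SFRP2 siRNA libraries overlapped (RAB6A siRNA against NC log2 fold change 1.35, SE 0.08, limma adjusted p = 1.8e-05). Rps10 itself stood at 1.36 FPKM in NC, 0.935 FPKM in SFRP2 siRNA and 4.34 FPKM in RAB6A siRNA as means, so its pseudogene was listed 179.9 times higher over the 9 libraries. In the annotation, 28.7% of the exon bases of Rps10 also lie under other genes.

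In all, 8 pseudogenes were listed above the gene they are named after, while the median pseudogene stood at 1.36% of its parent. Rps2-ps10, in an intron of Pde6a on the opposite strand, had 338, 306 and 320.3 FPKM in NC, 329.8, 254 and 245 FPKM in SFRP2 siRNA, and 534, 560.4 and 413 FPKM in RAB6A siRNA, 3.90 times Rps2 on average (RAB6A siRNA against NC 0.63, SE 0.12, limma adjusted p = 0.0033, lost at 0.16 with a correction for GC content and length and at 0.00 with quantile normalization). Rpl3-ps1 (chrX:13202571-13203780) stood at 234, 224 and 237 FPKM in NC, 224, 196 and 190.2 FPKM in SFRP2 siRNA, and 367, 403 and 341 FPKM in RAB6A siRNA, 2.10 times Rpl3. In both, the RAB6A siRNA libraries lay above the rest and the other groups were close or overlapped. The others above their parent were Rpl17-ps10 (1.54 times), Rpl17-ps3 (1.26), Rpl35a-ps2 (2.06), Rpl21-ps15 (6.46) and Rps10-ps1 (3.60), each as a ratio of means over 9 libraries. The 46 parents had a median of 162 FPKM, and Rps10, Rpl21 and Rpl35a were among 6 parents under 25 FPKM.

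The remaining pseudogenes among the 10 highest also lay higher in the RAB6A siRNA libraries, with 1 exception. Rpl14-ps1 (chr7:45324965-45325617, in an intron of Trpm4 on the opposite strand) had 209, 217 and 211 FPKM in NC, 195, 204 and 191 FPKM in SFRP2 siRNA, and 368, 397 and 367 FPKM in RAB6A siRNA (log2 fold change 0.83 against NC, SE 0.06, limma adjusted p = 3.2e-05). Rpl28-ps1, identical to Rpl28, had 38.4, 41.8 and 37.8 FPKM in NC, 36.7, 36.8 and 37.8 FPKM in SFRP2 siRNA, and 171, 171 and 149.5 FPKM in RAB6A siRNA (2.05, SE 0.07, limma adjusted p = 3.6e-06). The RAB6A siRNA libraries did not overlap the others in either, and the parent Rpl28 was also higher (1.70). Rps12-ps3 (log2 fold change 1.54), Rpl38-ps2 (1.91) and Rps6-ps4 (1.40) were also higher, and each is 100.0% identical to its parent. Rpl17-ps3 was the exception, with 116, 343 and 438 FPKM in RAB6A siRNA around the NC values of 149.8, 149 and 139 FPKM (log2 fold change 0.83, SE 0.45, limma adjusted p = 0.149).

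**Figure D1:**
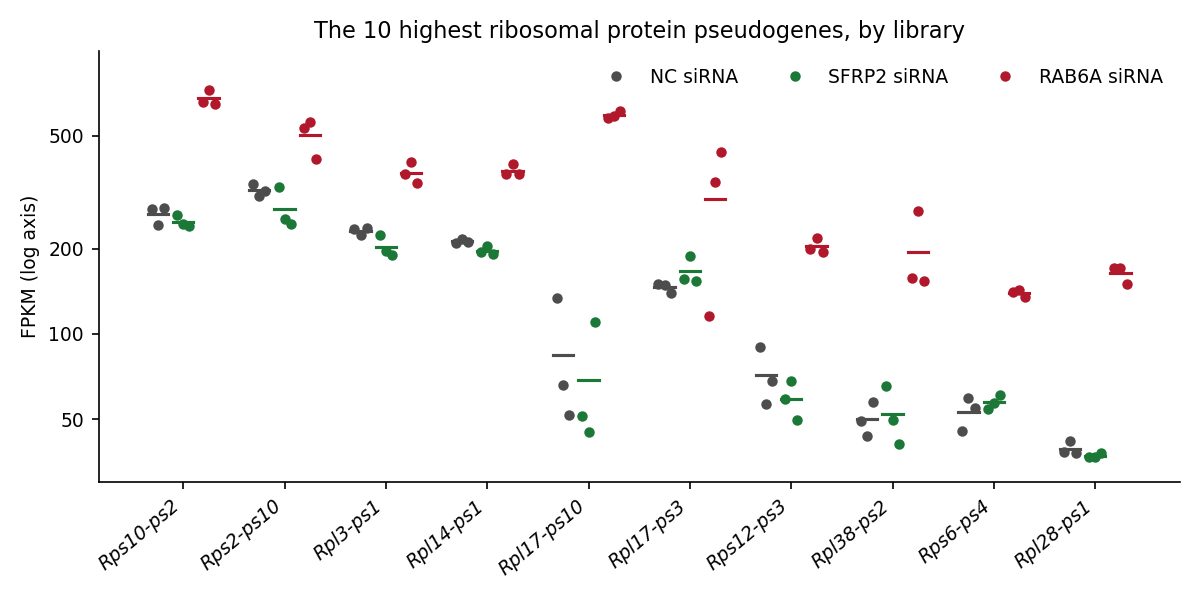
FPKM on a log axis of the 10 ribosomal protein pseudogenes with the highest mean, 1 point per library and a bar at each group mean (n = 3 libraries per group). The RAB6A siRNA points lie above both other groups for 9 of the 10 and straddle them for Rpl17-ps3.

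Between the RAB6A siRNA and NC libraries, the pseudogenes were higher together. The summed FPKM of the 132 was 2001, 1771 and 1875 in NC and 4513, 5017 and 4447 in RAB6A siRNA, a ratio of means of 2.47, with no overlap (two-sided exact permutation p = 0.10, the smallest that 3 against 3 libraries allows). The sum of the 46 parents stood higher by a ratio of 2.21 (7928 ± 159 to 17539 ± 1496 FPKM, SD, n = 3). As FPKM is a share of a library, a larger sum says nothing of RNA per cell, and in bulk RNA a change in the make-up of a culture and a change in each cell cannot be told apart. Counted as reads, the pseudogenes took 1.31 ± 0.0703 per 1000 in NC and 2.94 ± 0.194 per 1000 in RAB6A siRNA (SD, n = 3). By subunit, large subunit pseudogenes stood at 1007 ± 49.1 and 2686 ± 206 FPKM in NC and RAB6A siRNA, and small subunit pseudogenes at 876 ± 75.7 and 1973 ± 206 FPKM (SD, n = 3).

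Other groups of genes moved in both directions. All 1640 other processed pseudogenes with a mean of at least 0.1 FPKM, most of them without a name after a parent gene, summed to 20101 ± 769 FPKM in NC and 26374 ± 1634 FPKM in RAB6A siRNA (SD, n = 3), and every RAB6A siRNA library lay above every NC library. Their parent genes were not looked up, so unnamed copies of ribosomal protein genes may be among these 1640. The 119 of them with "-ps" in their symbol summed to 2025 ± 20.1 FPKM in NC and 1638 ± 61.8 FPKM in RAB6A siRNA (SD, n = 3), and the 46 genes in whose introns the pseudogenes lie summed to 350.0 ± 5.16 and 291 ± 3.66 FPKM. These last sums were lower in every RAB6A siRNA library than in every NC library.

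**Figure D2:**
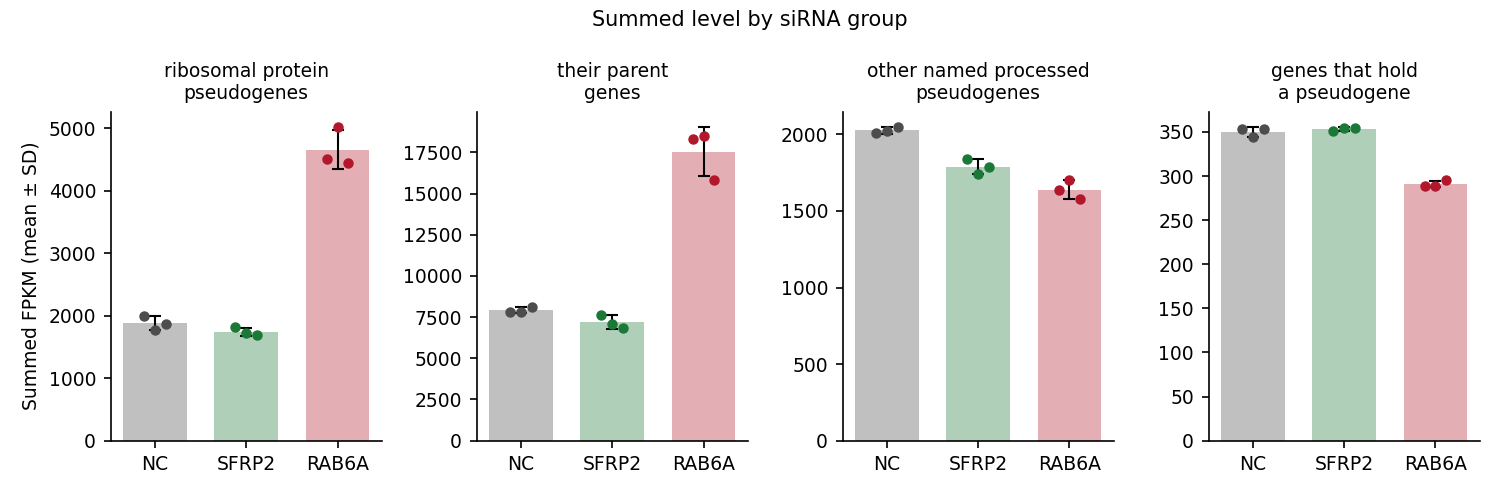
Summed FPKM in each siRNA group of the 132 ribosomal protein pseudogenes, their 46 parent genes, 119 other named processed pseudogenes and the 46 genes that hold a ribosomal protein pseudogene. Bars are means from 0, error bars the SD and points the 3 libraries. Pseudogenes and parents are higher in RAB6A siRNA, and the other pseudogenes and the holding genes lower.

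Gene by gene, 87 of the 132 pseudogenes passed limma at an adjusted p under 0.05 as higher in RAB6A siRNA than in NC, 65.9% of them against 33.9% of all genes tested. As lower passed 2, Rpl21-ps1 and Rpl17-ps7, 1.52% against 30.2%. The 3 libraries of each group did not overlap for 89 as higher (36.8% of all genes) and 3 as lower (33.0%). The log2 fold change was above 0 in 122 of 132, against 53.0% of all genes, and had a median of 1.28, where the median of all genes was 0.07. Among the 46 parents 42 passed as higher and none as lower, with a median of 1.13, and across all 80 cytosolic ribosomal protein genes 75 passed as higher, with a median of 1.10. Among the 119 other named processed pseudogenes 24 were higher and 25 lower, with a median of −0.07, and among all 1640 other processed pseudogenes 518 were higher and 238 lower, with a median of 0.36. Of the 117 pseudogenes with an NC mean of at least 0.1 FPKM, 79 passed as higher and 2 as lower. Without any filter, 181 ribosomal protein pseudogenes above 0 in these 6 libraries could be tested, and 84 passed as higher and 1 as lower, against 21.7% and 18.7% of all genes. When each library was corrected for the GC content and exon length of its genes, 63 pseudogenes passed as higher and 3 as lower, against 31.8% and 33.6% of all genes. The median was then 0.64 for the pseudogenes, 1.00 for the parents and −0.58 for the other named processed pseudogenes, of which 7 were higher and 52 lower. The pseudogenes had a median exon length of 482 bases where all genes tested had 3130, and nearly the same GC content (50.1% and 49.1%).

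**Figure D3:**
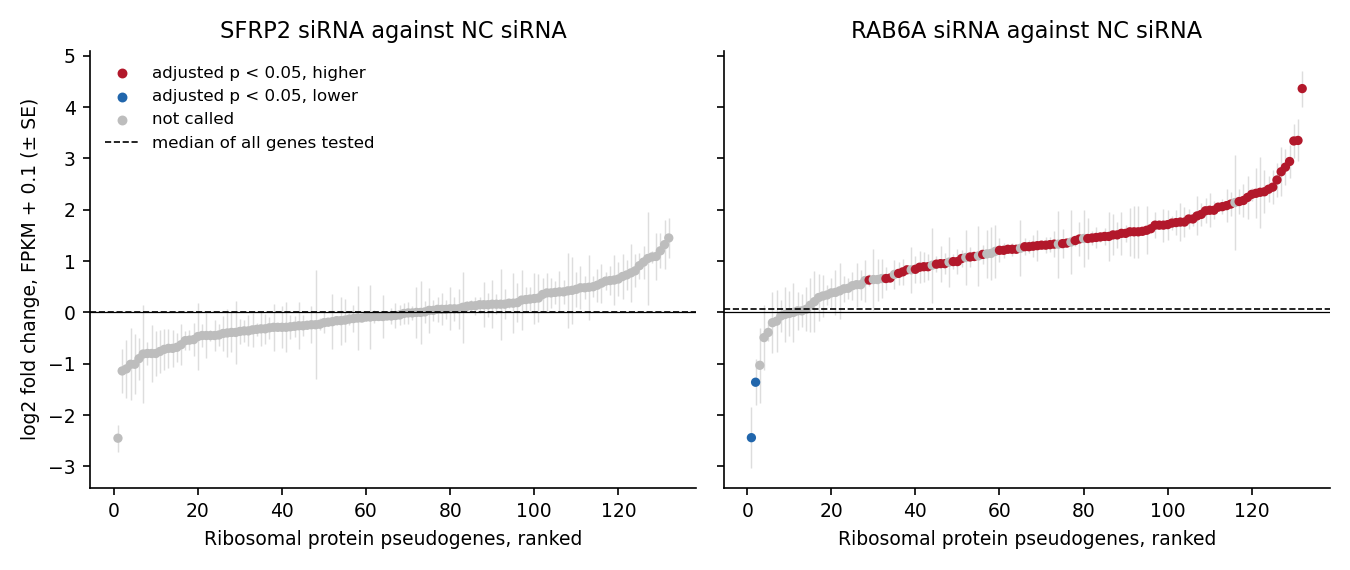
log2 fold change on the FPKM + 0.1 scale of each of the 132 pseudogenes, ranked, in the SFRP2 siRNA and RAB6A siRNA libraries against NC, with the SE as a vertical line and the median of all genes tested as a dashed line. In the SFRP2 siRNA panel no point passes the test and the points scatter around 0. In the RAB6A siRNA panel 87 points pass as higher and 2 as lower.

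The highest fold changes belonged to pseudogenes that were near 0 in NC. Of the 132, 15 had an NC mean under 0.1 FPKM, Rps2-ps9 and Rps10-ps4 among them, and 8 were under it in SFRP2 siRNA as well, so those 8 met the rule only through the RAB6A siRNA libraries and had to be higher there. Rps2-ps9 (ENSMUSG00000080731, chr17:27784379-27785246, in an intron of D17Wsu92e on the opposite strand) had 0.0554, 0.0244 and 0.217 FPKM in NC, 0.284, 0 and 0.0332 FPKM in SFRP2 siRNA, and 3.68, 4.05 and 3.31 FPKM in RAB6A siRNA. The counts behind these were 2, 1 and 8 reads in NC and 116, 133 and 94 reads in RAB6A siRNA. All RAB6A siRNA libraries lay far above the rest (log2 fold change 4.36, SE 0.35, limma adjusted p = 4.8e-05), and the pseudogene, 90.3% identical to Rps2, shared no window of 100 bases with any other transcript. Rps2 itself changed by 0.62.

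Rps15a-ps6 (ENSMUSG00000083022, chr11:6172644-6173036, in an intron of Nudcd3 on the same strand) had 0.367, 0.108 and 0.0598 FPKM in NC and 2.03, 3.16 and 2.25 FPKM in RAB6A siRNA, without overlap (log2 fold change 3.35, SE 0.41, limma adjusted p = 3.5e-04). Its host Nudcd3 was lower (−0.32, limma adjusted p = 0.011). Rpl5-ps1 (ENSMUSG00000082193, chr1:14865072-14865965, between genes) had 0.430, 0.285 and 0.395 FPKM in NC and 6.31, 2.66 and 5.80 FPKM in RAB6A siRNA, from 16, 12 and 15 reads against 205, 90 and 170 (log2 fold change 3.34, SE 0.33, limma adjusted p = 1.3e-04). The libraries again stood apart, where Rpl5, a component of the 5S particle of the large subunit, changed by 0.35. Rps10-ps4, which met the rule only through the RAB6A siRNA libraries, is given as a description, from 0, 0 and 0.0956 FPKM in NC to 0.615, 0.806 and 0.993 FPKM, where NC held 2 reads in all against 42, a ratio of 25.9 per unit of depth with an exact 95% interval of 6.73 to 220.5 for counting error.

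The pseudogenes were also split by how much sequence they share. The 14 that share no window of 100 bases summed to 8.26 ± 1.18 FPKM in NC, 9.40 ± 0.461 FPKM in SFRP2 siRNA and 29.0 ± 3.42 FPKM in RAB6A siRNA (SD, n = 3). The 19 whose every window is shared summed to 378 ± 12.6, 356 ± 18.3 and 1169 ± 109 FPKM. Passing as higher were 5 of the 14 (35.7%, median log2 fold change 1.10), near the 33.9% of all genes, and 16 of the 19 (84.2%, median 1.47). Their levels differed too, with medians of 0.356 and 18.2 FPKM.

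Rps10-ps1 and Rpl36-ps12 were among the pseudogenes with the highest levels of those with over 50% of windows of their own. Rps10-ps1 (chr3:95622278-95622772) had 5.39, 4.97 and 5.70 FPKM in NC and 12.7, 12.5 and 12.9 FPKM in RAB6A siRNA (log2 fold change 1.23, SE 0.07, limma adjusted p = 1.1e-05). Rpl36-ps12 (chr6:108140120-108140509) had 5.30, 4.02 and 4.76 FPKM in NC and 11.2, 12.4 and 7.91 FPKM in RAB6A siRNA (1.13, SE 0.18, limma adjusted p = 0.0013). Both were higher in every RAB6A siRNA library than in every NC library, and the rise of Rpl36-ps12 lost its call under the GC content and length correction.

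At 99% identity or more, 44 of 51 were called higher (86.3%), at 95% to 99% 37 of 62 (59.7%), and below 95% 6 of 19 (31.6%, near the 33.9% of all genes), with median log2 fold changes of 1.43, 1.02 and 1.14. The median levels of those classes were 5.68, 0.582 and 0.204 FPKM. By level, 6 of the 7 at 100 FPKM or more passed as higher (46.6% of all genes at that level), 16 of 18 from 10 to 100 (30.1%), 36 of 40 from 1 to 10 (37.4%), and 11 of 20 from 0.5 to 1 (40.5%). Below 0.5 FPKM it was 18 of 47, which is 38.3% beside 28.1% of all genes at that level. With at least 10 reads per library on average, 69 of 86 passed, and with fewer, 18 of 46, the latter not far from the 33.9% of all genes.

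By position in the genome, between genes 47 of 76 passed as higher, in introns on the opposite strand 24 of 32, and in introns on the same strand 13 of 20. The share of all genes was 33.9%. For 11 pseudogenes in an intron on the same strand the host gene was tested as well, and of the 9 pseudogenes called higher 1 had a host called higher and 4 a host called lower. On the opposite strand 15 of 23 were called higher, with 3 hosts higher and 6 lower. Beside these host counts, 33.9% of all genes were called higher and 30.2% lower. The median log2 fold change on the same strand was 1.70 for the pseudogenes and −0.32 for the hosts. Without knowledge of the strand setting of the counting, reads from a pseudogene and from its host's unspliced RNA on either strand could not be told apart.

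The pair called lower went against most of the set. Rpl21-ps1 (ENSMUSG00000102606, chr1:184617248-184617727, in an intron of Gm37800 on the opposite strand) had 1.00, 1.46 and 2.30 FPKM in NC, 0.976, 0.964 and 1.32 FPKM in SFRP2 siRNA, and 0.631, 0.0551 and 0.127 FPKM in RAB6A siRNA, from 20, 33 and 47 reads against 11, 1 and 2. No RAB6A siRNA library reached the lowest NC library (log2 fold change −2.44, SE 0.59, limma adjusted p = 0.0092). Rpl17-ps7 (chr14:103010246-103010786, in an intron of 4933432I03Rik on the opposite strand) had 0.755, 0.470 and 0.609 FPKM in NC and 0.407, 0.0489 and 0.169 FPKM in RAB6A siRNA (−1.36, SE 0.45, limma adjusted p = 0.033). Its host was lower as well (−1.66, limma adjusted p = 1.8e-04), and its call was lost when any NC library or RAB6A siRNA library 2 or 3 was left out. Rps7-ps2, whose sequence is closer to Odc1 than to Rps7, had 0.963, 0.897 and 0.751 FPKM in NC and 0.613, 0.648 and 0.657 FPKM in RAB6A siRNA, also without overlap, but did not pass (−0.39, SE 0.16, limma adjusted p = 0.064). It passed as lower under quantile normalization (−0.81), without an intensity trend (−0.39) and with the GC content and length correction (−0.58).

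Between the SFRP2 siRNA and NC libraries no pseudogene passed as higher or as lower by limma, against 0.00591% of all genes tested, which is 1 gene, as higher and 0% as lower. At an unadjusted p under 0.05, 8 pseudogenes were higher and 11 lower, which is 19 of 132 together, beside 6.59% and 8.31% of all genes. Voom on whole reads recovered from the FPKM called 1 pseudogene higher, Rpl7a-ps5. The summed FPKM was 1814, 1716 and 1689 in SFRP2 siRNA against 2001, 1771 and 1875 in NC, and these overlapped (ratio of means 0.924, two-sided exact permutation p = 0.20). The median log2 fold change was −0.07, with 61 of 132 above 0 (49.0% of all genes). The libraries of the groups did not overlap for 12 as higher and 9 as lower, beside 9.65% and 11.0% of all genes. The parents had a median of −0.14, with 7 of 46 above 0, and all 80 ribosomal protein genes −0.16, with 10 above 0, none of them called.

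Rpl7a-ps5 (ENSMUSG00000071052, chr17:57838430-57839221, in an intron of Cntnap5c on the opposite strand) is named after Rpl7a, a large subunit gene. It had 7.98, 9.83 and 7.60 FPKM in NC, 16.2, 18.1 and 19.4 FPKM in SFRP2 siRNA, and 24.9, 12.4 and 15.2 FPKM in RAB6A siRNA. Against NC the RAB6A siRNA libraries passed as higher (0.99, SE 0.25, limma adjusted p = 0.011), a call lost at 0.45 with the GC content and length correction. The SFRP2 siRNA libraries all lay above the NC libraries, with a log2 fold change of 1.08 (SE 0.12, unadjusted p = 1.5e-04), which did not pass over all genes (limma adjusted p = 0.164). Voom on recovered reads gave 1.07 with an adjusted p of 0.0498. Rpl7a stood at 185, 199.8 and 216 FPKM in NC and 222, 152 and 146 FPKM in SFRP2 siRNA, which overlapped.

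On the lower side Rpl38-ps1 had the smallest p. It had 6, 3 and 4 reads in NC, none in the 3 SFRP2 siRNA libraries, and 1, 8 and 4 reads in RAB6A siRNA. With 3 reads over the SFRP2 siRNA group taken as the floor, NC was 3.78-fold higher per unit of depth. That value leaves out the counting error of the NC reads. Rpl38-ps1 did not pass (limma adjusted p = 0.164), and Rpl38-ps2, its sister copy of Rpl38, overlapped between the groups (49.4, 43.4 and 57.4 FPKM in NC, 65.5, 49.5 and 40.9 FPKM in SFRP2 siRNA). Rpl31-ps8, from 39.7, 35.2 and 36.2 FPKM to 33.2, 28.6 and 28.9 FPKM, and Rpl30-ps3, from 0, 0.122 and 0.135 FPKM to 0.354, 0.296 and 0.496 FPKM, did not pass (limma adjusted p = 0.246 and 0.249).

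Compared directly, the RAB6A siRNA libraries had 86 pseudogenes higher and 2 lower than the SFRP2 siRNA libraries, against 33.3% and 29.7% of all genes, with a median log2 difference of 1.26 and 120 of 132 above 0 (53.0% of all genes). At least the 8 pseudogenes under 0.1 FPKM in both NC and SFRP2 siRNA, which met the rule only through the RAB6A siRNA libraries, had to be higher here as well. This comparison and the one with NC share the RAB6A siRNA libraries, and comparisons of either siRNA with NC share the NC libraries. The 2 lower were again Rpl21-ps1 (−1.99) and Rpl17-ps7 (−1.93). Rpl7a-ps5 was not among those called, with 16.2 to 19.4 FPKM in SFRP2 siRNA inside the 12.4 to 24.9 FPKM of RAB6A siRNA.

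The level of a pseudogene relative to its parent was compared as the log2 ratio of (FPKM + 0.1) in each library. In RAB6A siRNA against NC the ratio did not overlap between the groups for 48 of 132 pseudogenes (36.4%), 37 higher and 11 lower, where 31 of 101 other named processed pseudogenes (30.7%) did not overlap. In SFRP2 siRNA against NC it did not overlap for 15 (11.4%), 13 higher and 2 lower, where the share among the other pseudogenes was 6.93%. These counts moved by over 1.5 times with a pseudocount of 1, to 76 in RAB6A siRNA and 24 in SFRP2 siRNA. The median shift was 0.19 in RAB6A siRNA and 0.12 in SFRP2 siRNA. Summed over the set, the pseudogenes stood at 23.8% ± 1.55 of the parents' FPKM in NC, 24.2% ± 0.469 in SFRP2 siRNA and 26.6% ± 1.80 in RAB6A siRNA (SD, n = 3). Against NC, the two-sided exact permutation p was 0.20 for RAB6A siRNA and 0.70 for SFRP2 siRNA. Between RAB6A siRNA (24.6% to 28.1%) and SFRP2 siRNA (23.7% to 24.6%) it was 0.10, the smallest that 3 against 3 libraries allows. For single pseudogenes 3 against 3 libraries cannot give an exact permutation p below 0.1.

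The rises of the ratio in RAB6A siRNA were led by Rps2-ps9, from 0.120% of Rps2 in NC to 2.90%, Rps15a-ps6, from 0.580% of Rps15a to 4.03%, and Rpl5-ps1, from 0.220% of Rpl5 to 2.30%. The falls were led by Rpl21-ps1, from 124% of Rpl21 to 19.3%, Rpl17-ps7, from 0.482% of Rpl17 to 0.0883%, and Rps7-ps2, from 1.01% of Rps7 to 0.304%. In SFRP2 siRNA the rises were led by Rpl30-ps3, from 1.04% of Rpl30 to 9.08%, Rpl30-ps9, from 4.46% to 18.8%, and Rpl36a-ps3, from 0.565% of Rpl36a to 1.61%. The ratio of Rpl38-ps1 was lower without overlap, from 0.169% of Rpl38 to no read. Both Rpl30 copies are divided by a parent that itself stood at 9.76, 10.4 and 4.56 FPKM in NC and 4.21 FPKM as the SFRP2 siRNA mean. Rps7-ps2 and Rpl36a-ps3 are divided by the gene of their name, although their closest coding genes are Odc1 and Rpl36al. In RAB6A siRNA against NC the log2 fold change was 0.07 for Odc1 and 1.28 for Rps7. In SFRP2 siRNA against NC it was −0.14 for Rpl36al and −0.17 for Rpl36a.

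Across the 132 pairs in RAB6A siRNA against NC, the log2 fold changes of pseudogene and parent gave low correlations (Pearson 0.19, Spearman 0.19, n = 132 pairs that share libraries and often a parent, given as a description). In SFRP2 siRNA against NC the values were −0.06 and 0.03. Of the 117 pseudogenes whose parent was called higher in RAB6A siRNA, 77 were called higher. The 117 are most of the 132, of which 87 were called higher, so their share had to lie close to that of the whole set. For that reason this count cannot decide whether the call of a copy goes with that of its parent. Of all genes tested, 33.9% were called higher.

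**Figure D4:**
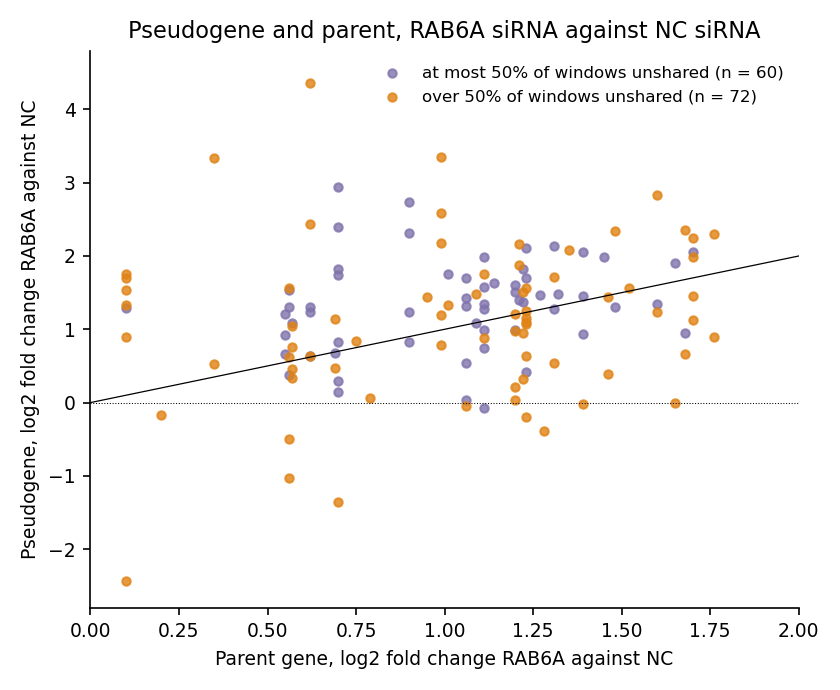
log2 fold change in RAB6A siRNA against NC of each pseudogene (vertical) against that of its parent gene (horizontal), with the line of equal change. The 72 pseudogenes with over 50% of their windows of 100 bases in no other transcript and the 60 with less lie on both sides of the line, and the lowest and highest points belong to the 72.

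Pseudogenes of the same parent did not always share a call. Of 31 parents with at least 2 pseudogenes, 9 had every copy called higher in RAB6A siRNA against NC, 20 had some, and 2 had none. All 4 copies of Rpl35a were called higher, as were all 3 of Rpl36a, Rpl36, Rps10 and Rps6. The 10 copies of Rpl31 ran from −0.20 to 2.11 on the log2 scale and 3 were called, where Rpl31 changed by 1.23. Of the 7 copies of Rpl21, 6 were called higher and Rpl21-ps1 lower, while Rpl21 itself, at 1.28 FPKM in NC, changed by 0.10 (limma adjusted p = 0.623). The 6 copies of Rps2 ran from 0.63 to 4.36, and 5 were called. Copies of 1 parent share sequence, so they are not independent of each other.

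**Figure D5:**
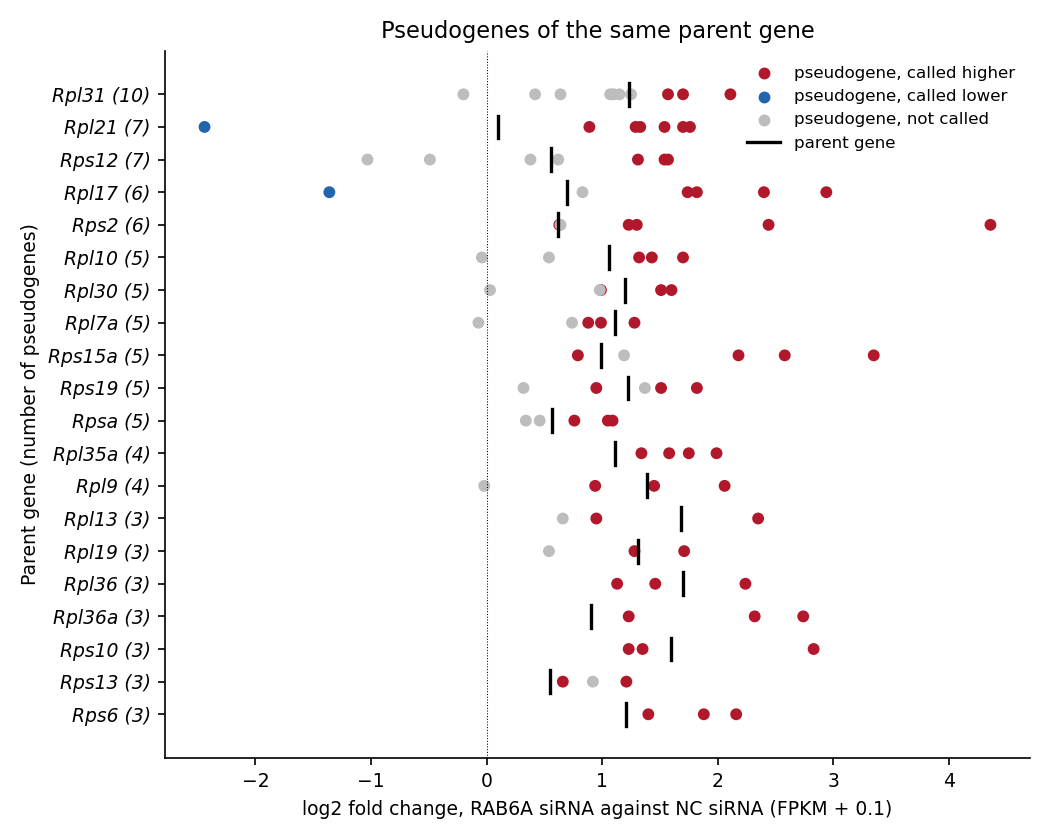
log2 fold change in RAB6A siRNA against NC of every pseudogene of the 20 parents with at least 3, 1 point per pseudogene coloured by its call, with the parent gene as a vertical tick. Copies of Rpl21 run from −2.44 to 1.76 around a parent at 0.10.

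Rpl17 and its copies varied in opposite directions between the NC libraries and only in part so in the other groups, and were singled out after their values were seen. Rpl17-ps10 (chr7:72648757-72649311, 99.3% identical to Rpl17) had 134, 66.2 and 51.7 FPKM in NC, 51.3, 45.0 and 110.0 FPKM in SFRP2 siRNA, and 580.2, 586 and 614 FPKM in RAB6A siRNA (log2 fold change 2.94 against NC, SE 0.32, limma adjusted p = 2.0e-04). Rpl17-ps3 (chr12:67510756-67511311, 99.6% identical) had 116, 343 and 438 FPKM in the RAB6A siRNA libraries 1, 2 and 3, in which Rpl17 had 425, 139 and 144 FPKM. Where the parent was high the copy was low, and the reverse. Rpl17 had 144, 178 and 200.1 CPM (recovered reads scaled to library size) in the NC libraries and its 6 copies together 172, 131 and 115, while parent and copies together had 315, 309 and 315. The coefficient of variation in NC was 16.4% for the parent, 20.9% for the copies and 1.10% for their sum. It was 11.2%, 10.6% and 4.24% in SFRP2 siRNA, and 69.9%, 19.3% and 15.6% in RAB6A siRNA. In SFRP2 siRNA the parent had 171, 180.2 and 145 CPM and the copies 127, 142 and 157, so both rose from library 1 to 2. In RAB6A siRNA the sum was 1012, 751 and 825 CPM, above every NC library, and in SFRP2 siRNA 299, 323 and 302. Rpl17 alone did not pass between RAB6A siRNA and NC (0.70, limma adjusted p = 0.186).

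Among the pseudogenes with at least 100 reads per library, the median coefficient of variation was 13.4% in NC, 13.7% in SFRP2 siRNA and 8.33% in RAB6A siRNA. It went over 30% for 2, 4 and 6 of them. Rps26-ps1, a copy of the small subunit gene Rps26 singled out after its values were seen, had 68.6, 6.47 and 56.6 FPKM in NC, 14.1, 13.1 and 25.4 FPKM in SFRP2 siRNA, and 198, 175 and 63.3 FPKM in RAB6A siRNA. The NC and RAB6A siRNA libraries overlapped, and with a log2 fold change of 2.14 against NC it did not pass.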

How the data were processed

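From extracted total RNA, mRNA libraries were made and sequenced (9 libraries, 3 per siRNA group), and the authors deposited FPKM per Ensembl gene; the submitters' processing notes name HISAT2, featureCounts and Subread. Versions, the annotation release, the strand setting and the treatment of reads that match several places are not given in the sources used here. Symbols, exon lengths and transcripts came from GENCODE M21, which named 27533 of 28137 identifiers. Whole reads were recovered from FPKM and exon length for 27084 genes (98.4% of those named, tolerance 0.03 reads), 131 pseudogenes among them, and gave the depth. limma 3.58.1 (R 4.3.3) with an intensity trend was fitted to log2(FPKM + 0.1) for the 16925 genes with a mean of at least 0.1 FPKM, on the 6 libraries of each comparison, with Benjamini-Hochberg adjustment over all genes. This scale understates changes of low genes. Fits were tested on simulated data. Members and lists were chosen with earlier results of these data known. Named pseudogenes were the 10 highest, the extremes of each comparison and of the ratio to the parent, and the highest with over 50% unshared windows; some of them are not reported here. Python 3.11.15 was used for the rest. Intervals cover counting error only. Same-numbered libraries did not deviate together (mean correlation −0.00255), so no block was used. Alternatives were other pseudocounts, filters, scalings, GC content and length correction, voom, a block on the replicate number, 1 fit over 9 libraries and leaving out each library.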

Additional observations from a re-analysis of the deposited data

Results flagged for a closer look

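The effects of both siRNAs against NC were compared directly between RAB6A siRNA and SFRP2 siRNA libraries (limma, adjusted p under 0.05 over all genes). They differed for 86 pseudogenes with a higher and 2 with a lower effect of RAB6A siRNA, against 33.3% and 29.7% of all genes. Among the 132 are at least 8 that met the rule only through the RAB6A siRNA libraries and had to be higher there. Both effects against NC use the same NC libraries, which cancel in their difference and were not part of this fit. Among the named pseudogenes, the difference of the log2 effects (RAB6A siRNA minus SFRP2 siRNA) was 1.44 for Rps10-ps2, 0.86 for Rps2-ps10, 0.86 for Rpl3-ps1, 0.94 for Rpl14-ps1, 3.23 for Rpl17-ps10, 1.80 for Rps12-ps3, 1.87 for Rpl38-ps2, 1.28 for Rps6-ps4 and 2.14 for Rpl28-ps1. It was 1.99 for Rpl31-ps8, 4.45 for Rps2-ps9, 3.08 for Rps15a-ps6, 3.66 for Rpl5-ps1, 1.00 for Rpl36a-ps3, 1.16 for Rps10-ps1 and 1.68 for Rpl36-ps12. For Rpl38-ps1 (2.46) and Rps10-ps4 (3.16) the SFRP2 siRNA libraries held no read, so the size depends on the pseudocount. Against a floor of 3 reads over that group RAB6A siRNA was 4.65-fold and 15.0-fold higher, without the counting error of its own reads. Rps10-ps4 met the rule only through the RAB6A siRNA libraries, so its values are a description and not a test. For Rpl21-ps1 the difference was −1.99 and for Rpl17-ps7 −1.93. Groups of 3 libraries are too small for the test of a single library far from the others.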

How the results depend on the processing

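The number of pseudogenes called higher in RAB6A siRNA against NC was 87, ran from 77 to 85 with 1 library left out and from 61 (means of at least 1 FPKM, where 70 were tested) to 87 under the other settings. Against SFRP2 siRNA it was 86, with 73 to 84 and 59 to 87. With the replicate number as a block 84 and 84 were called, and the block gave no call against SFRP2 siRNA and NC. The 2 called lower against NC became 1 with a pseudocount of 0.01, 1 with no filter, 1 with a minimum of 0.5 FPKM, 0 with a minimum of 1 FPKM, 3 with quantile normalization, without an intensity trend or with the GC content and length correction, and 1 to 2 with a library left out. Against SFRP2 siRNA the 2 became 0 with the minimum of 1 FPKM, 6 with the GC content and length correction, and 1 to 4 with a library left out. In SFRP2 siRNA against NC the 0 higher became 1 with voom (Rpl7a-ps5) and the 0 lower became 1 with a pseudocount of 0.01 (Rpl38-ps1, with no read in SFRP2 siRNA), and both stayed at 0 with any library left out. The ratio to the parent did not overlap for 15 in SFRP2 siRNA, 11 among those with at least 10 reads, 24 with a pseudocount of 1 and 26 to 36 with a library left out, where 2 libraries face 3. In RAB6A siRNA it was 48, 38, 76 and 57 to 62. Of 1516 values of 29 named pseudogenes under alternatives, 1469 kept direction and call, 31 lost the call, 15 gained it and 1 turned, Rps2-ps10 in RAB6A siRNA against NC under quantile normalization (0.00, limma adjusted p = 1.00), where the median of all genes shifted to −0.04. Rpl17-ps3 in RAB6A siRNA against NC gained a call without RAB6A siRNA library 1 (1.41, limma adjusted p = 3.9e-04). The 46 pseudogenes under 10 reads per library limit what could be called.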
